A study of Mus musculus with 3 samples.

Results

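Stromal cells of the mouse metaphysis, the trabecular region of long bone just below the growth plate, were taken from droplet single cell RNA-seq counts by a gate on unique molecular identifiers (UMIs), each of which tags a captured RNA molecule. The cells were chosen by the summed UMIs of *Limch1*, *Kcnk2* and *Wif1*, of which a cell needed at least 4. A cell also had to hold under 0.5% of its UMIs in *Bglap* and *Bglap2*, at most 1 UMI of *Lepr* and *Adipoq*, 0 of *Sstr2*, at most 1 of *Pecam1* and *Cdh5*, and under 5 of *Top2a*, *Mki67*, *Birc5*, *Cdk1* and *Ccnb2*, limits on genes of mature osteoblasts, *Lepr* stromal cells, septoclasts, endothelial cells and cycling cells. The gate took 2076 of 15628 kept cells from 3 libraries, all of untreated mice aged 3 weeks. In the first group, 2 libraries (metaphyseal replicates 1 and 2) came from the metaphysis of C57BL/6 males (C57BL/6J in the methods) after depletion of lineage-positive, CD45+ and CD117+ cells. In the second, a single library (Pdgfra-GFP) came from GFP+ cells sorted from the metaphysis and epiphysis of males heterozygous for a Pdgfra-H2B-GFP knock-in, in which the *Pdgfra* locus drives a nuclear reporter. The mouse line, the sort, the dissected region and the library all differ between the groups and cannot be told apart.

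The libraries held 25243314, 22082735 and 91747759 UMIs, and the kept cells had medians of 6257, 6426 and 5330 UMIs. The gate took 117 cells (4.91%, 95% exact binomial interval 4.08 to 5.86) in metaphyseal 1, 98 cells (4.89%, 3.99 to 5.93) in metaphyseal 2 and 1861 cells (16.6%, 15.9 to 17.3) in the Pdgfra-GFP library. The metaphyseal shares overlapped, and the share after the sort lay above both. The intervals cover counting error only, and depletion and sorting came before these shares. Of the kept cells, 0 barcodes were shared by the metaphyseal libraries, and 9 and 10 barcodes by the Pdgfra-GFP library with metaphyseal 1 and 2, against 3.94 and 3.32 expected by chance, and 0 barcodes were gated cells in both libraries of a pair.

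Metaphyseal mesenchymal stromal cells lie beside the growing capillaries at the chondro-osseous border, where cartilage matrix is removed and bone is laid down. They are known as a stromal compartment near to early osteoblasts, whereas stromal cells deeper in the marrow, marked by the leptin receptor gene *Lepr*, are the main source of the chemokine CXCL12 and of stem cell factor for haematopoietic cells. Osteoblasts secrete type I collagen and the proteins of mineralising bone, and septoclasts are protease-rich cells that resorb cartilage at the same border. Of the genes in the gate, *Limch1* encodes an activator of non-muscle myosin, *Kcnk2* the mechanosensitive potassium channel TREK-1, and *Wif1* a secreted Wnt inhibitor.

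The gate did not give a uniform population. *Limch1* and *Kcnk2* together had at least 4 UMIs in 48, 41 and 877 members (41.0, 41.8 and 47.1%), here called Limch1/Kcnk2-high cells, and 1 to 3 UMIs in 30, 27 and 235 members. In the remaining 39, 30 and 749 members both genes were at 0, so that *Wif1* alone met the gate. These Wif1-only cells were of 2 kinds. In the metaphyseal libraries *Col1a1* and *Col1a2*, the chains of type I collagen, made up at least 3% of the UMIs of 37 of 39 and 30 of 30 Wif1-only cells. In the Pdgfra-GFP library 594 of 749 (79.3%) instead held at least 1% of their UMIs in 7 cartilage genes (*Col2a1*, *Acan*, *Col9a1*, *Col9a2*, *Col9a3*, *Matn3* and *Hapln1*), 117 passed the collagen limit and 38 passed neither. Among Limch1/Kcnk2-high cells 36 of 48, 33 of 41 (80.5%) and 834 of 877 (95.1%) passed neither limit. The split by *Limch1* and *Kcnk2* was made after these values were seen and is given as a description, with no test.

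**Figure D1:**
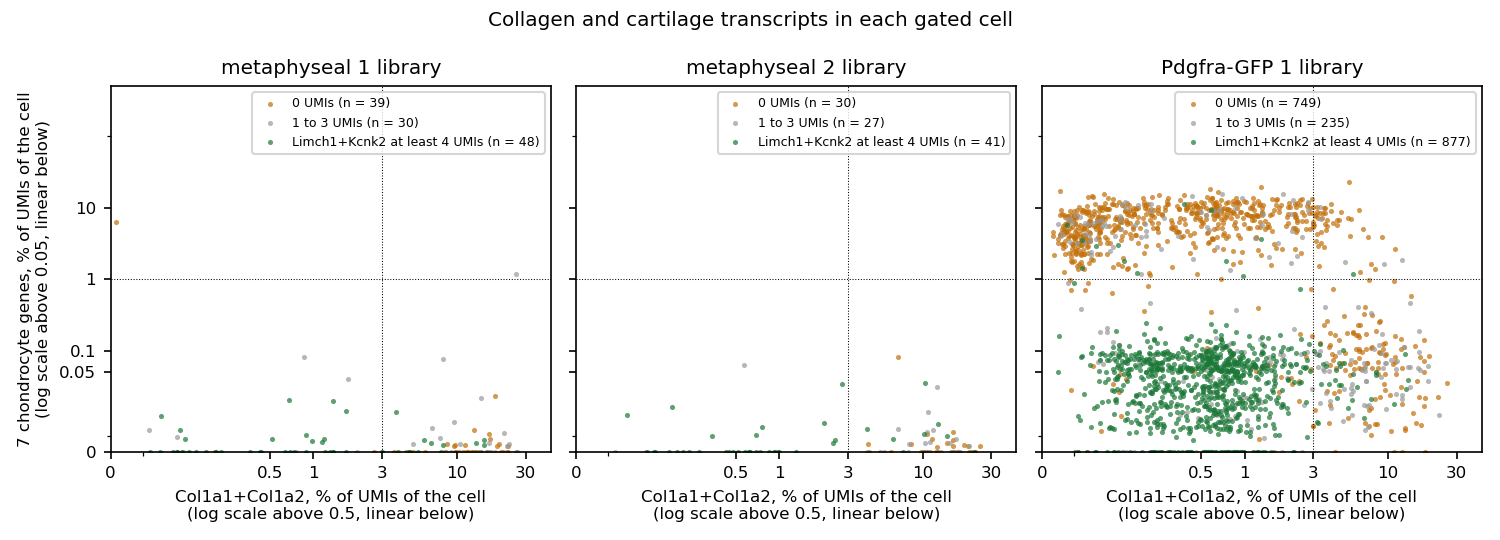
Each point is a gated cell, with the share of its UMIs in Col1a1 and Col1a2 on the x axis (percent) and in 7 cartilage genes on the y axis (percent), coloured by its Limch1 and Kcnk2 UMIs; dotted lines mark 3% and 1%. Most of the 48, 41 and 877 Limch1/Kcnk2-high cells lie at the lower left of each panel, and 594 of the 685 cells above the 1% line of the Pdgfra-GFP panel have no Limch1 or Kcnk2 UMI.

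The markers *Postn* and *Aspn*, given below, went with the Limch1/Kcnk2-high cells, and the members as a whole were a mixture with *Wif1*-bearing cells rich in bone or cartilage transcripts. Summed over the population, *Col1a1* reached 19479, 24722 and 4653 counts per 1000000 UMIs (CPM) in Limch1/Kcnk2-high cells of metaphyseal 1, metaphyseal 2 and the Pdgfra-GFP library, and 79494, 86138 and 11988 CPM in Wif1-only cells. *Col2a1*, the main collagen of cartilage, was at 34.0, 49.8 and 1025 CPM in Limch1/Kcnk2-high cells and at 832, 23.7 and 43949 CPM in Wif1-only cells. The 832 CPM of metaphyseal 1 came mainly from 1 of 39 cells. That cell held 6.33% of its 16330 UMIs in the cartilage genes listed above. In the other Wif1-only cells of that library this share was at most 0.0352%, so the 832 CPM does not describe them as a group. *Col2a1* was thus highest in Wif1-only cells of the sorted library, and the near-empty barcodes of that library also held the most, 6885 CPM against 774 and 972 CPM. Wif1-only cells were also deeper, with median UMIs of 21894, 23865.5 and 8283 against 11946, 11690 and 6047. The gate is a limit in UMIs, and the part of depth in which cells passed it was not tested.

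Of the 6 genes that marked these cells, 3 chose the cells, and all 6 are described with no test. *Lepr* stromal cells, gated as given below, could hold at most 1 UMI of the 3 gate genes. The low levels of *Limch1*, *Kcnk2* and *Wif1* in them were therefore capped by the gate and are no result. *Limch1* (chromosome 5, 66745827 to 67057158 of GRCm38, plus strand) was at 697, 847 and 1155 CPM in Limch1/Kcnk2-high cells, against 48.8, 53.3 and 44.2 CPM in *Lepr* stromal cells and 4.31, 12.6 and 28.4 CPM in osteoblasts. *Kcnk2* (chromosome 1, 189207930 to 189402273 of GRCm38, minus strand) was at 286, 376 and 767 CPM and did not exceed 33.1 CPM in *Lepr* stromal cells or osteoblasts. *Limch1* was not limited to these cells, since endothelial cells held it at 173, 157 and 131 CPM, with a UMI in 60.4, 55.8 and 45.7% of them, and septoclasts of the Pdgfra-GFP library at 157 CPM. *Wif1* (chromosome 10, 121033960 to 121100650 of GRCm38, plus strand) was at 1239, 1115 and 2698 CPM in Limch1/Kcnk2-high cells and at 372, 361 and 1725 CPM in Wif1-only cells. Where cells were chosen on *Limch1* and *Kcnk2* only, so that *Wif1* took no part, *Wif1* was at 1079, 931 and 2553 CPM and had a UMI in 91.4, 89.8 and 95.6% of 58, 49 and 955 cells. The other 2 gate genes were found less often when left out in the same way. *Limch1* had a UMI in 51.2, 57.1 and 50.8% of cells chosen on *Kcnk2* and *Wif1*. *Kcnk2* had a UMI in 41.4, 46.7 and 43.7% of cells chosen on *Limch1* and *Wif1*.

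*Postn*, which encodes the matrix protein periostin (chromosome 3, 54361109 to 54391037 of GRCm38, plus strand), was at 419.9, 405 and 529.5 CPM in Limch1/Kcnk2-high cells and at 30.8, 60.6 and 25.4 CPM in Wif1-only cells. It stayed at or below 15.2 CPM in *Lepr* stromal cells and 41.6 CPM in osteoblasts. *Aspn*, which encodes the small leucine-rich proteoglycan asporin (chromosome 13, 49544443 to 49567565 of GRCm38, plus strand), was at 153, 85.1 and 369 CPM in Limch1/Kcnk2-high cells. It came from a minority of them: 10.4, 12.2 and 24.9% of these cells had a UMI of *Aspn*, and 0.952% of 210 endothelial cells, which should lack it, did so in the Pdgfra-GFP library, at median depths of 6047 and 5211.5 UMIs. Neuropeptide Y, the product of *Npy* (chromosome 6, 49822710 to 49829507 of GRCm38, plus strand), was all but limited to the sorted library. *Npy* was at 379 CPM in its Limch1/Kcnk2-high cells, with a UMI in 125 of 877 (14.3%, exact interval 12.0 to 16.7), against 1.90% of its endothelial cells. The metaphyseal libraries had 2 UMIs in 1 of 48 cells and 0 in 41 cells (exact interval up to 8.60%). With each cell thinned to 2000 UMIs, the *Npy* shares were 11.4% in Limch1/Kcnk2-high cells (37 shallower cells left out) and 0.483% in endothelial cells of the Pdgfra-GFP library.

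**Figure D2:**
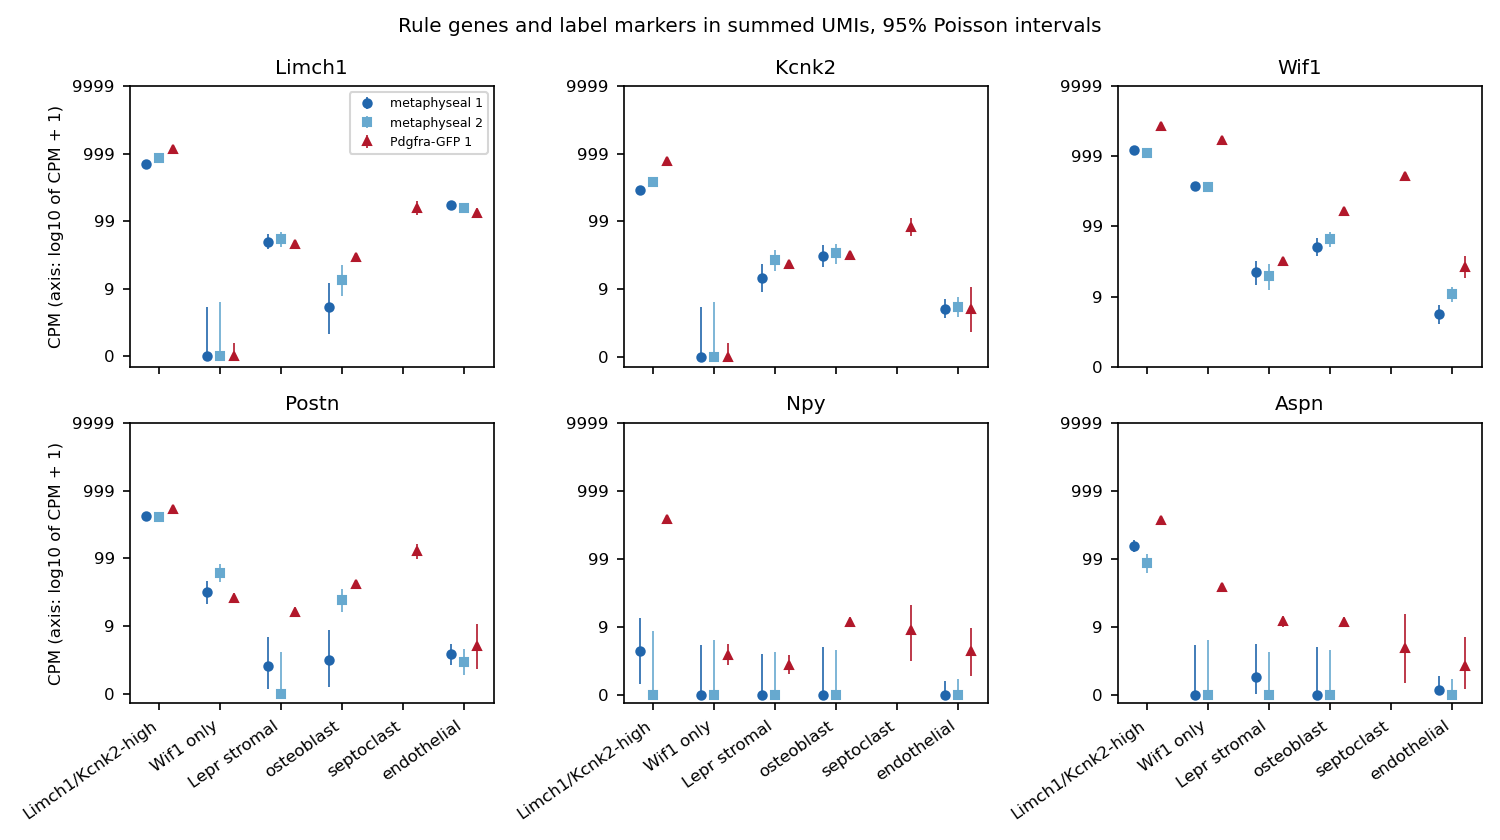
Level of the 6 marker genes (CPM, on a log10 axis of CPM + 1) in summed UMIs of each population, one symbol per library, with 95% Poisson intervals that cover counting error only. Postn and Aspn are highest in Limch1/Kcnk2-high cells in all 3 libraries among the populations shown, Npy stands out only in the Pdgfra-GFP library at 379 CPM, and Limch1 is also present in endothelial cells.

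Members just inside the limit did not stand apart in 1 direction from cells just outside it. At 4 UMIs of the 3 gate genes there were 13, 11 and 124 cells, with *Postn* at 70.2, 17.5 and 87.0 CPM and *Cxcl12* at 78.1, 30.6 and 564 CPM. At 3 UMIs there were 19, 11 and 208 cells that met the other limits, with *Postn* at 45.2, 84.4 and 139.6 CPM and *Cxcl12* at 9.05, 44.7 and 524 CPM. Cells at 10 or more UMIs had *Postn* at 261, 295 and 322 CPM. *Postn* near the limit was closer to its level in Wif1-only cells than to that in Limch1/Kcnk2-high cells.

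The first comparison asked how the members differed from *Lepr* stromal cells (223, 208 and 2600 cells, with at least 4 UMIs of *Lepr* and *Adipoq* and at most 1 of the 3 gate genes). UMIs were summed per library and population and fitted with edgeR's quasi-likelihood test with the library as a block. The genes of all gates and the 6 markers were left out of the calls, and every fitted log2 change below is for all members unless Limch1/Kcnk2-high cells are named as compared alone. In 11529 genes tested, 4562 (39.6%) passed a Benjamini-Hochberg adjusted p of 0.05, 2555 (22.2%) higher and 2007 (17.4%) lower in members. Since the gates cut between these populations, genes that go with the gate genes had to differ, and the counts describe the gated sums. Fitted changes are on the TMM scale, which sets the median of all genes near 0, whereas the median log2 ratio of plain CPM was -0.45 against *Lepr* stromal cells and 0.59 against osteoblasts, and 33 and 21 of the called genes, none of them named here, had the opposite sign on the CPM scale. Leaving out metaphyseal 1 or metaphyseal 2 lowered the count to 2884 and 2820. For Limch1/Kcnk2-high cells alone it was 3404, of which 1685 were higher and 1719 lower. Counts for gene lists below are to be read beside these shares of all genes.

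Genes of the marrow niche were lower in members than in *Lepr* stromal cells. Of 19 tested genes of that list 17 were lower and 2 higher, with a median log2 fold change of -4.23 against 0.004 over all genes. *Cxcl12*, the chemokine that retains haematopoietic stem cells in the marrow, was at 988, 1435 and 3386 CPM in Limch1/Kcnk2-high cells, 33.2, 37.0 and 196 CPM in Wif1-only cells, and 24673, 24045 and 24215 CPM in *Lepr* stromal cells. The difference for all members was -4.97 (SE 0.55, adjusted p = 0.00015). Among Limch1/Kcnk2-high cells a minority carried *Cxcl12*, since 9, 8 and 262 of them had at least 20 of its UMIs. The other 39, 33 and 615 cells were at 272, 328 and 937 CPM. *Kitl*, which encodes stem cell factor, was at 85.0, 99.7 and 95.3 CPM in Limch1/Kcnk2-high cells and 1715, 1767 and 711 CPM in *Lepr* stromal cells (-4.81, SE 0.56). *Vcam1* (-5.54), *Il7* (-3.82), *Angpt1* (-3.34) and *Csf1* (-2.21) were also lower, as were the transcription factor genes *Foxc1* (-2.27) and *Ebf3* (-4.02). The 2 higher members of the list were *Spp1* (3.40), which encodes the phosphoprotein osteopontin, and *Ptn* (1.88), a heparin-binding growth factor. Near-empty barcodes, which hold free RNA, had *Cxcl12* at 5677, 5494 and 5546 CPM, above its level in the Limch1/Kcnk2-high cells of every library, and its part in their level was not tested.

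The lower gene with the largest difference was *Lpl*, which encodes lipoprotein lipase. It was at 45.9, 41.5 and 131 CPM in Limch1/Kcnk2-high cells against 9004, 8711 and 8634 CPM in *Lepr* stromal cells (all members, -7.82, SE 0.66). It was followed by *Adrb3* (-7.65), the beta-3 adrenergic receptor of adipocytes, the lactate receptor gene *Hcar1* (-7.36), *Adcyap1r1* (-7.23), *Fmo2* (-7.06), *Cbln1* (-6.89), the BMP antagonist gene *Chrdl1* (-6.80), the melanocortin receptor gene *Mc5r* (-6.69), *Esm1* (-6.68) and *Trarg1* (-6.52). In all 10 the Limch1/Kcnk2-high cells alone gave a difference of the same sign, between -8.33 (*Adcyap1r1*) and -5.52 (*Trarg1*).

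Genes of the osteoblast lineage went the other way, with 22 of 25 tested higher (22.2% of all genes), 1 lower and a median of 3.40. For Limch1/Kcnk2-high cells alone, most of which were not rich in collagen, the median of that list was 2.60. Markers of late osteoblasts and osteocytes moved with it, with 9 of 10 higher and a median of 4.04, or 1.31 for Limch1/Kcnk2-high cells, and their part in the result was not tested. *Alpl*, the tissue-nonspecific alkaline phosphatase needed for mineralisation, was at 1411, 1592 and 1801 CPM in Limch1/Kcnk2-high cells against 36.6, 53.3 and 72.7 CPM in *Lepr* stromal cells (all members, 4.77, SE 0.27, adjusted p = 1.1e-05). Its level in Limch1/Kcnk2-high cells also lay above that in osteoblasts, 447, 490.1 and 461 CPM, in every library. *Sp7*, which encodes the osteoblast transcription factor osterix, was at 144, 203 and 181 CPM against 20.3, 15.7 and 17.6 CPM (3.75, SE 0.29). *Runx2*, which acts upstream of *Sp7*, was at 170.0, 203 and 131 CPM against 156, 203 and 75.3 CPM and did not pass (0.44, SE 0.18, adjusted p = 0.083). The lower gene was the cadherin gene *Cdh11* (-1.10).

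The genes with the largest rise against *Lepr* stromal cells were *Fat3* (6.80), *Ifitm5* (6.73), a gene of early mineralising osteoblasts, *Cthrc1* (6.52), a secreted collagen triple helix protein, the potassium channel gene *Kcnk1* (6.39), *Zbtb7c* (6.36), *Cgref1* (6.19), *Car3* (6.17), *Smpd3* (5.84), a sphingomyelinase of bone mineralisation, *Rap1gap* (5.79) and the Wnt deacylase gene *Notum* (5.78). In Limch1/Kcnk2-high cells alone *Fat3* and *Rap1gap* gave 7.09 and 6.02, and the other 8 gave less than all members, from 5.31 (*Car3*) down to 2.91 (*Notum*). *Fat3*, a large protocadherin, was at 129, 183 and 73.2 CPM in Limch1/Kcnk2-high cells, against 1.63, 0 and 0.644 CPM in *Lepr* stromal cells.

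**Figure D3:**
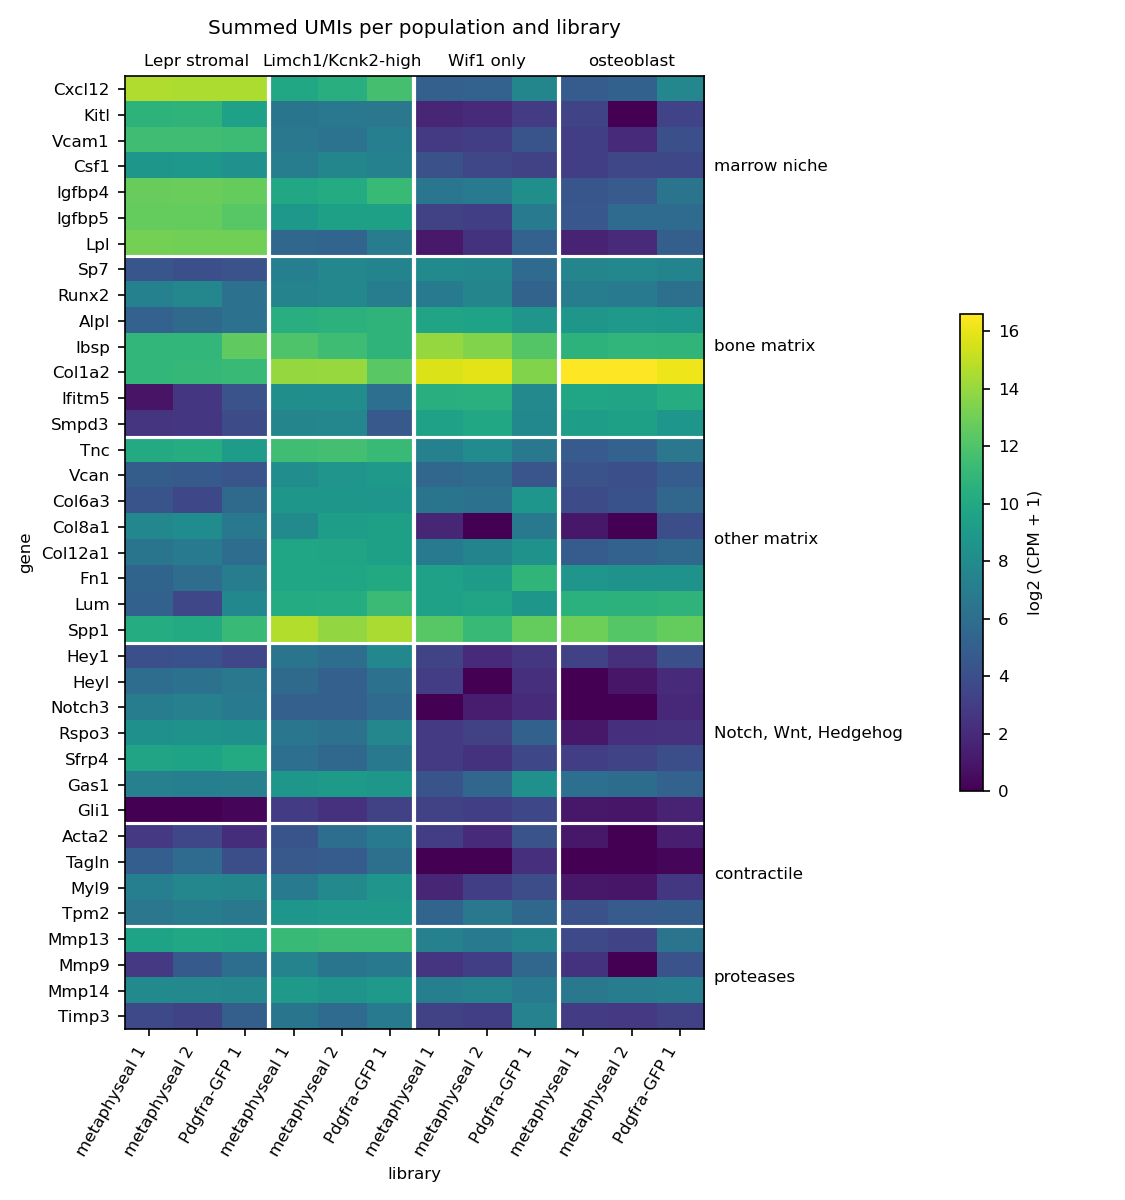
Levels as log2 of CPM + 1 (colour) of genes in 6 groups, for 4 populations and 3 libraries. Limch1/Kcnk2-high cells are intermediate for niche genes such as Cxcl12, have more Alpl than osteoblasts, and have the highest Tnc, Vcan, Col12a1 and Hey1 of the 4 populations in every library.

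The second comparison set the members against osteoblasts (44, 53 and 1035 cells with at least 1% of UMIs in *Bglap* and *Bglap2* and at least 10 UMIs of *Col1a1*). In 11529 genes, 1270 (11.0%) passed, 820 (7.11%) higher and 450 (3.90%) lower in members. The count moved with the libraries and the settings. It was 196 without the library block, 4749 (2402 higher, 2347 lower) with cells gated after thinning to 2000 UMIs, 785 without metaphyseal 1, 658 without metaphyseal 2, and 3693 when Limch1/Kcnk2-high cells alone were compared. Without the Pdgfra-GFP library it was 896, of which 434 were higher and 462 lower, so that the majority turned.

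The niche list ran the other way against osteoblasts, with 13 of 19 genes called higher in members (7.11% of all genes) and a median of 1.83. *Cxcl12* was at 28.0, 34.0 and 207 CPM in osteoblasts (members higher by 2.61, SE 0.50, adjusted p = 0.015), and *Csf1* at 7.54, 10.7 and 11.1 CPM against 128, 191 and 155 CPM in Limch1/Kcnk2-high cells (1.96, SE 0.22). *Pdgfrb*, the PDGF receptor gene of perivascular stroma, was at 196, 143 and 234 CPM in Limch1/Kcnk2-high cells, between 696, 706 and 504 CPM in *Lepr* stromal cells (-2.71, SE 0.39) and 2.15, 0.972 and 9.08 CPM in osteoblasts (3.09, SE 0.47). The order of the 3 populations for *Pdgfrb* was the same in every library. In all, 343 genes were lower than in *Lepr* stromal cells and higher than in osteoblasts, and 249 were higher than in *Lepr* stromal cells and lower than in osteoblasts. These comparisons share the members' sums.

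Of the osteoblast list 6 of 25 were lower than in osteoblasts (3.90% of all genes) and the others were not called, with a median of -0.72, or -1.12 for Limch1/Kcnk2-high cells. The lower genes were *Col1a2* (-2.16), *Sparc* (-1.39), which encodes osteonectin, the homeobox gene *Dlx3* (-1.53), *Bmp3* (-1.77), *Phex* (-1.84) and *Cd200* (-1.19). *Col1a1*, part of the osteoblast gate and so not tested, was at 142180.0, 152330.0 and 103455 CPM in osteoblasts. The largest fall was of *Bglap3* (-6.73), a near-identical copy of the gate genes *Bglap* and *Bglap2*, so its reads cannot be separated with certainty from theirs. Among the other lower genes were *Prss35* (-3.52), *Ranbp3l* (-3.45), the hepatic lipase gene *Lipc* (-3.35), *Hspb2* (-2.93), *Tubb3* (-2.80), *Hrc* (-2.67) and *Gimap6* (-2.43).

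The protease gene *Mmp13* led the genes that were higher than in osteoblasts and abundant in Limch1/Kcnk2-high cells. This collagenase, which cleaves type II collagen of cartilage, was at 2394, 2626 and 2648 CPM in Limch1/Kcnk2-high cells, 154, 112 and 181 CPM in Wif1-only cells and 11.8, 9.72 and 84.1 CPM in osteoblasts (members higher by 4.47, SE 0.61, adjusted p = 0.0043). *Lepr* stromal cells held 780.5, 988 and 842 CPM, and the difference from them did not pass (0.72, SE 0.51, adjusted p = 0.29). Of 25 protease and inhibitor genes tested, 7 were higher and 1 lower than in osteoblasts (7.11% and 3.90% of all genes), and 7 higher and 5 lower than in *Lepr* stromal cells (22.2% and 17.4%). Among the other genes with the largest rise, *Myl9* (4.16) and *Acta2* (3.96) encode smooth muscle myosin light chain and actin, *Col8a1* (3.98) a short-chain collagen of vessel walls, and *Ccdc3* (3.89) a secreted protein. The cytoskeleton list had 11 of 23 genes higher, with *Tpm2* at 415, 479.6 and 492 CPM in Limch1/Kcnk2-high cells and 16.1, 26.3 and 28.3 CPM in osteoblasts (2.49, SE 0.19). Against *Lepr* stromal cells 5 of the 23 were higher and 4 lower, near the 22.2% and 17.4% of all genes. Markers of mural cells moved with that list against osteoblasts, with 6 of 10 higher. Their median was 1.65, or 2.40 for Limch1/Kcnk2-high cells, and their part in the result was not tested. Of the same 10 mural genes, 3 were higher and 4 lower than in *Lepr* stromal cells.

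**Figure D4:**
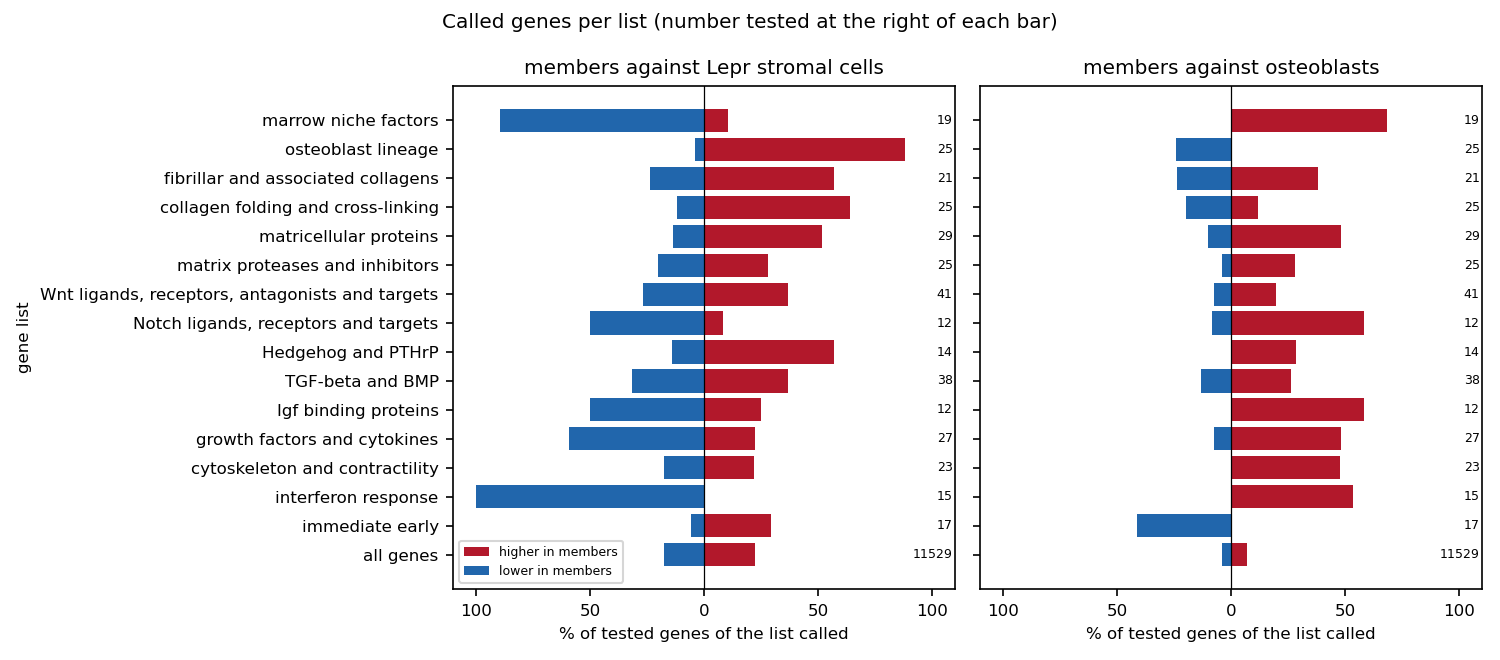
Percent of the tested genes of each list called higher (red, to the right) or lower (blue, to the left) in members than in Lepr stromal cells (left panel) or osteoblasts (right panel), with the number tested beside each bar. Niche genes point left against Lepr stromal cells (17 of 19 lower) and right against osteoblasts (13 of 19 higher), and the bottom bar gives all 11529 genes.

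Several matrix genes were higher in members than in both populations. In all, 243 genes were called higher than in both and 45 lower than in both, and 76 of the higher ones had the same direction in every library and reached 20 CPM. *Col12a1*, a collagen that lies between fibrils, was at 865, 830.4 and 695 CPM in Limch1/Kcnk2-high cells, with 86.3, 115 and 59.1 CPM in *Lepr* stromal cells (2.77, SE 0.28) and 28.0, 36.0 and 48.6 CPM in osteoblasts (2.78, SE 0.28). *Vcan*, which encodes the proteoglycan versican, was at 284, 397 and 503 CPM, against 28.5, 25.4 and 19.3 CPM (3.34, SE 0.26) and 18.3, 15.6 and 27.9 CPM (2.35, SE 0.26). *Col6a3*, a chain of collagen VI, was at 445, 444 and 420.1 CPM, against at most 51.2 CPM and 43.9 CPM. For each of these genes all 3 Limch1/Kcnk2-high values lay above all 6 values of the populations compared. *Slc20a2*, a phosphate transporter gene, was at 257, 266 and 451 CPM against at most 20.3 and 11.0 CPM, and *Mest* at 149.6, 147 and 296 CPM against at most 17.1 and 9.90 CPM.

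Some other genes called higher than in both were low in Limch1/Kcnk2-high cells and high in the sorted library. *Tnmd*, a tendon and ligament marker, was at 345 CPM in Wif1-only cells of the Pdgfra-GFP library, and at 0, 2.08 and 19.3 CPM in Limch1/Kcnk2-high cells. For these cells alone, the differences of *Tnmd* from *Lepr* stromal cells and osteoblasts were 0.73 and 0.69 in place of 4.38 and 4.30 for all members. *Lgals3*, *Igfbp6* and *Hhip* were at most 33.0, 36.5 and 5.56 CPM in Limch1/Kcnk2-high cells of any library, with 411, 168 and 73.0 CPM over all members of the Pdgfra-GFP library. *Fmod*, the gene of the proteoglycan fibromodulin, was at 1864 CPM over those members, and at 133, 214 and 288 CPM in Limch1/Kcnk2-high cells, above *Lepr* stromal cells (92.8, 43.7 and 70.1 CPM) and osteoblasts (19.4, 37.9 and 92.0 CPM) in each library. *Car8*, *Acta2*, *S100a4*, *Thbs3* and *Ndnf* complete the 15 genes with the largest rise over both. *Thbs3* lost both calls without the Pdgfra-GFP library (0.87 and 1.55), and *Ndnf* was at 86.7, 114 and 145 CPM in Limch1/Kcnk2-high cells against at most 9.72 CPM in osteoblasts. *S100a4* also marks fibroblasts, of whose 11 tested list genes 8 were higher than in *Lepr* stromal cells, against 22.2% of all genes, with a median of 2.41 that was 0.51 for Limch1/Kcnk2-high cells alone.

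The collagen list had 12 of 21 genes higher and 5 lower than in *Lepr* stromal cells (median 1.88, and 1.08 for Limch1/Kcnk2-high cells), and 8 higher and 5 lower than in osteoblasts (median 1.08, and 1.26 for Limch1/Kcnk2-high cells), beside 22.2% and 17.4%, and 7.11% and 3.90%, of all genes. Matricellular proteins, which sit in matrix and signal to cells, had 15 of 29 higher and 4 lower than in *Lepr* stromal cells with a median of 2.35, but only 0.10 in Limch1/Kcnk2-high cells. *Tnc*, which encodes tenascin C, was at 2949.5, 3151 and 2384 CPM in Limch1/Kcnk2-high cells, 155, 253 and 98.0 CPM in Wif1-only cells, 1137, 1221 and 562 CPM in *Lepr* stromal cells, and 25.8, 37.0 and 92.5 CPM in osteoblasts. The difference for all members was 3.77 (SE 0.51, adjusted p = 0.0043) from osteoblasts and 0.70 (SE 0.45, adjusted p = 0.24) from *Lepr* stromal cells. *Fn1*, the fibronectin gene, was at 898, 909 and 1091 CPM against 39.9, 59.5 and 129.8 CPM in *Lepr* stromal cells (4.15, SE 0.32).

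Among signalling genes, the Notch target *Hey1* was higher in members than in both neighbours. *Hey1* was at 83.3, 62.3 and 218 CPM in Limch1/Kcnk2-high cells, against 15.5, 17.5 and 10.7 CPM in *Lepr* stromal cells (2.30, SE 0.45, adjusted p = 0.0033) and 8.61, 3.89 and 15.3 CPM in osteoblasts (1.60, SE 0.44, adjusted p = 0.048). Of 12 tested Notch genes, *Hey1* was the only one higher than in *Lepr* stromal cells, and 6 were lower, among them the receptor gene *Notch3* (-2.59) and the target *Hes1* (-1.84), beside 22.2% higher and 17.4% lower of all genes. Against osteoblasts 7 were higher and 1 lower (7.11% and 3.90% of all genes), with *Notch3* (2.48), *Heyl* (2.76) and the ligand gene *Jag1* (1.54) among the higher. *Hey1* is also used by endothelial cells, which held 20.9, 19.3 and 86.3 CPM, and their part in the *Hey1* of the members was not tested.

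Of 41 Wnt genes tested 15 were higher and 11 lower than in *Lepr* stromal cells, and 8 higher and 3 lower than in osteoblasts, beside 22.2% higher and 17.4% lower, and 7.11% and 3.90%, of all genes. The median of the list against *Lepr* stromal cells was 0.11, or -0.28 for Limch1/Kcnk2-high cells. The Wnt enhancer gene *Rspo3* lay between its neighbours, at 90.1, 70.6 and 204 CPM in Limch1/Kcnk2-high cells, 319, 347 and 327 CPM in *Lepr* stromal cells (-2.24, SE 0.31) and 1.08, 3.89 and 4.25 CPM in osteoblasts (3.42, SE 0.42). Hedgehog genes were higher in 8 of 14 and lower in 2 against *Lepr* stromal cells, with a median of 1.40 for all members and 0.38 for Limch1/Kcnk2-high cells, in which *Hhip*, an inhibitor of the pathway, went the other way (-1.28). *Gli1*, a target and effector of the pathway, was at 6.80, 4.15 and 8.71 CPM in Limch1/Kcnk2-high cells and 0, 0 and 0.215 CPM in *Lepr* stromal cells (5.81, SE 0.58), a low level throughout. *Gas1*, a Hedgehog co-receptor gene, was at 440.3, 534 and 435 CPM, above 151, 142 and 151 CPM (1.16, SE 0.26) and 64.6, 58.3 and 36.2 CPM (1.60, SE 0.27). TGF-beta and BMP genes were called in both directions, 14 higher and 12 lower of 38 against *Lepr* stromal cells and 10 higher and 5 lower against osteoblasts, beside the shares of all genes given for the Wnt list, and with medians of 0.33 and 0.27.

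All 15 genes of the interferon response list were lower than in *Lepr* stromal cells, with a median of -2.20, or -1.15 for Limch1/Kcnk2-high cells, and 8 were higher than in osteoblasts, beside 17.4% lower and 7.11% higher of all genes. *Isg15*, a ubiquitin-like protein made under interferon, was at 62.9, 39.4 and 165 CPM in Limch1/Kcnk2-high cells, 278, 309 and 376 CPM in *Lepr* stromal cells (-2.71, SE 0.30) and 2.15, 0.972 and 8.43 CPM in osteoblasts (2.37, SE 0.38). IGF binding proteins and partners had 6 of 12 lower and 3 higher than in *Lepr* stromal cells, and 7 higher than in osteoblasts, beside 17.4%, 22.2% and 7.11% of all genes. *Igfbp4* gave the same order of the 3 populations in each library, with 952, 1175 and 2344 CPM in Limch1/Kcnk2-high cells, 6974, 7254 and 6413 CPM in *Lepr* stromal cells and 20.5, 26.3 and 82.9 CPM in osteoblasts. Immediate early genes, which can respond to cell isolation, had 5 of 17 higher and 1 lower than in *Lepr* stromal cells, and 7 lower than in osteoblasts, beside 22.2%, 17.4% and 3.90% of all genes. The median of that list against *Lepr* stromal cells was 0.09, and -0.84 for Limch1/Kcnk2-high cells.

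Septoclasts, with a UMI of *Sstr2* and at least 4 UMIs of *Sstr2*, *Cd55* and *Otos*, numbered 4, 1 and 61 cells, so the comparison rests on the Pdgfra-GFP library and has no test. In that library *Mmp9*, the gelatinase B gene, was at 105 CPM in Limch1/Kcnk2-high cells and 17552 CPM in septoclasts, and *Mmp13* was at 2648 and 15276 CPM. *Fabp5*, the fatty acid binding protein gene that marks septoclasts, was at 75.3 and 3182 CPM. Some genes picked from those described above ran the other way: *Postn* (529.5 and 127 CPM), *Vcan* (503 and 213 CPM), *Col12a1* (695 and 196 CPM), *Tnc* (2384 and 852 CPM) and *Alpl* (1801 and 521 CPM). *Pdgfrb* (234 and 478 CPM), *Hey1* (218 and 119 CPM), *Spp1* (22754 and 19044 CPM) and *Serpine2* (4209 and 6353 CPM) were each present in both.

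The Limch1/Kcnk2-high cells differed among themselves in *Mmp13*. At least 10 UMIs of it were found in 24 of 48, 17 of 41 and 317 of 877 cells, and fewer in 24, 24 and 560. Cells with more *Mmp13* also had more *Serpine2*, a protease inhibitor gene, with 5440, 4206 and 6828 CPM against 1871, 1762 and 2511 CPM. They also had more *Spp1*, with 41006, 26537 and 37834 CPM against 12599, 8347 and 12979 CPM. *Lum*, the gene of the proteoglycan lumican, was lower in them, with 906, 253 and 1360 CPM against 1482, 1914 and 3234 CPM, and so was *Aspn*, with 14.3, 0 and 62.7 CPM against 278, 142 and 567 CPM. Only 5 of 48 and 5 of 41 cells of the metaphyseal libraries had an *Aspn* UMI, so its levels there rest on few cells. *Npy* in the Pdgfra-GFP library was at 4.24 CPM in cells with more *Mmp13* and 622 CPM in the others. Of the gate genes *Limch1* was at 752, 983 and 1164 CPM against 647, 756 and 1150 CPM, *Kcnk2* at 201, 393 and 524 CPM against 362, 364 and 925 CPM, and *Wif1* at 974, 766 and 2414 CPM against 1479, 1349 and 2882 CPM. *Wif1* was thus lower in cells with more *Mmp13* in each library, and *Kcnk2* in 2 of the 3. These cells were split after the values were seen, so no test was made. *S100a8*, a neutrophil gene, was at 14.3, 10.3 and 466 CPM against 10004, 24.3 and 1422 CPM, but only 1 of the 48 cells of metaphyseal 1 was rich in it, as given below, so that the values of that library do not describe its groups of cells.

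**Figure D5:**
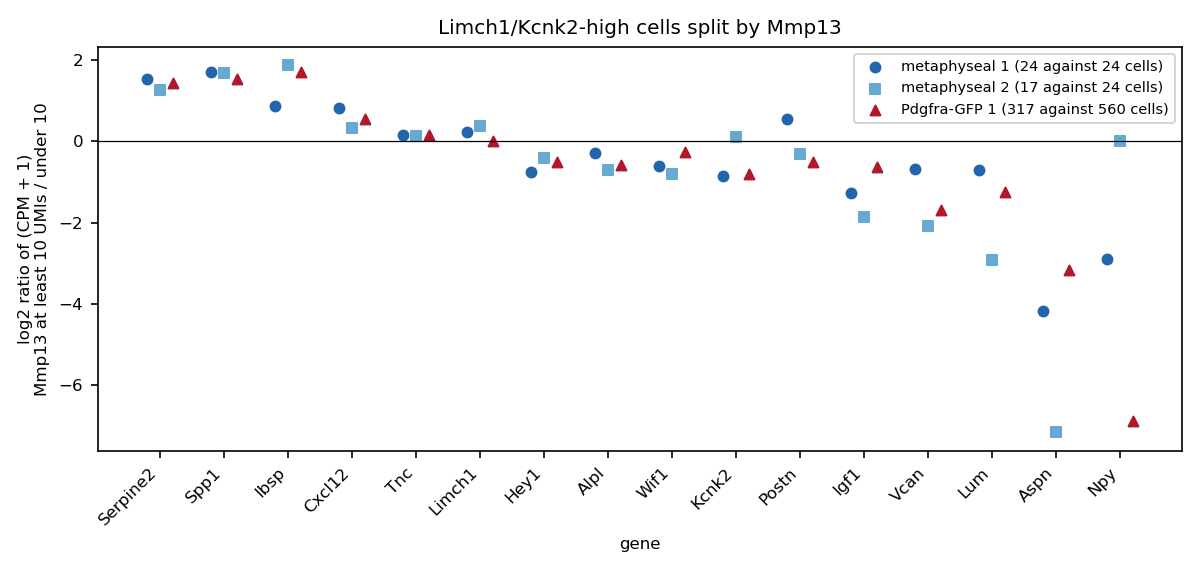
Log2 ratio of CPM + 1 between Limch1/Kcnk2-high cells with at least 10 and under 10 Mmp13 UMIs (y axis) for 16 genes, with 24 against 24, 17 against 24 and 317 against 560 cells. Serpine2, Spp1, Ibsp and Cxcl12 lie above 0 and Igf1, Vcan, Lum and Aspn below 0 in all 3 libraries. Aspn had a UMI in only 5 of 48 and 5 of 41 cells of metaphyseal 1 and 2. Npy at 0 in metaphyseal 2 means that no UMI was found on either side.

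Across these cells thinned to 2000 UMIs (48, 41 and 840 cells, of 1 library each, so that they share depth and free RNA), Spearman's rho of *Mmp13* was 0.70, 0.65 and 0.62 with *Serpine2*, 0.50, 0.51 and 0.42 with *Spp1* and -0.47, -0.62 and -0.43 with *Lum*. *Aspn* went with *Postn* (0.39, 0.47 and 0.25). Before thinning, only 5 of 48 and 5 of 41 cells of the metaphyseal libraries had an *Aspn* UMI, so the values of those libraries rest on few cells. *Cxcl12* went with *Igf1*, which encodes insulin-like growth factor 1 (0.41, 0.55 and 0.52). Among the thinned cells *Mmp13* thus rose with *Spp1* and *Serpine2* and ran against *Lum* in each library. Cells with at least 2 *Npy* UMIs numbered 102 in the Pdgfra-GFP library, and held *Mmp13* at 122 CPM, *Aspn* at 973 CPM and *Kcnk2* at 1418 CPM, against 2981, 283 and 668 CPM in the 752 cells with no *Npy* UMI.

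*Mmp13* and *Spp1* are known targets of RUNX2 in bone that also moved together in the cells, and their promoters are shown. The 250 bases before each start site were read from RefSeq promoters of GRCm38.p6, at chr9:7272264-7272513 and chr5:104434861-104435110, both on the plus strand, and searched on both strands for the RUNX core TGTGGT. Capitals mark its only match in each, on the minus strand and so written ACCACA, with its first base at -118 and -128 from the start site.
Mmp13: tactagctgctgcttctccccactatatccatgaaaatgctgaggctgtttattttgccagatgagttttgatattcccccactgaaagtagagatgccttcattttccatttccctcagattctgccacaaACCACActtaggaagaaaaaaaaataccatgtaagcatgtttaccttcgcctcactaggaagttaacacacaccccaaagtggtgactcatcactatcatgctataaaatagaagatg
Spp1: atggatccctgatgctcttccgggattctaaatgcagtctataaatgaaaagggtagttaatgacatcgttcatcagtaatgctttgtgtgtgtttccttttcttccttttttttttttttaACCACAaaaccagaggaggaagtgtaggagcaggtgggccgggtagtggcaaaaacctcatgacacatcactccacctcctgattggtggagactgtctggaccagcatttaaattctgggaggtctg
Of 32851 promoter windows of the same length, 4614 (14.0%) held the core. It was not found in the listed windows of *Limch1*, *Kcnk2*, *Wif1*, *Postn*, *Npy*, *Aspn*, *Serpine2* or *Vcan*, nor in that of a second *Spp1* start site. *Serpine2*, whose rho with *Mmp13* was above that of *Spp1* in every library, thus had no match in its window. A match is a description of letters and not of binding, which was not measured.

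To describe the spread over all members, cells were ranked in each library by the summed share of 5 bone matrix genes and cut into tertiles, which are ranges and not cell types. Of the 39, 33 and 621 cells of the low tertile 33, 30 and 568 were Limch1/Kcnk2-high cells, against 3, 3 and 27 cells of the high tertile. Of 7265 genes tested, with the ranking genes left out, 1927 (26.5%) differed between the high and the low tertile, 1078 (14.8%) higher and 849 (11.7%) lower in the high one. Since the ranking set the tertiles, genes that go with the ranking genes had to differ. These counts, and the changes and list counts given below for tertiles, describe the ranked sums. With cells gated after thinning to 2000 UMIs the count was 515 (247 higher, 268 lower), although ranking alone on thinned cells gave 1913, and without the library block 965. Depth differed along the ranking, with median UMIs of 9481, 9829 and 5347 in the low tertile and 22676, 23865.5 and 8861 in the high one. The high tertile also held different cells in the 2 groups, since 1 of 39, 0 of 32 and 427 of 620 of its cells had at least 1% of UMIs in the 7 cartilage genes. *Cxcl12* was at 26.2, 39.5 and 197 CPM in the high tertile and 1548, 2340 and 4673 CPM in the low one, and *Tnc* at 76.3, 168 and 161 CPM against 3888, 4207 and 2409 CPM. The ranking therefore ran from Wif1-only to Limch1/Kcnk2-high cells.

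The chondrocyte list had 10 of 14 genes higher in the high tertile, with a median of 5.94. Genes of collagen processing were higher in the high tertile (18 of 21, 1 lower), as were immediate early genes (15 of 16), beside 14.8% of all genes. Contractile and cytoskeletal genes were lower (16 of 23), with 5 of 6 mural genes (1 higher, median -3.87), as were niche genes (13 of 16), interferon genes (10 of 10) and Notch genes (7 of 10, 1 higher). Of all genes, 11.7% were lower. *Myl9* fell from 217, 370.2 and 545 CPM in the low tertile to 2.28, 0 and 7.13 CPM in the high one (-6.51, SE 0.68), and *Tagln*, another smooth muscle gene, from 33.9, 43.0 and 97.2 CPM to 0, 0 and 1.28 CPM (-5.99, SE 0.64). *Caln1*, *Fmo1*, *Igf1*, *Tmem86a*, *Ggt5*, *Plac8*, *Wdr86* and *Fhl2* were the next lower, at between -6.02 and -5.31. *Col11a2*, a minor fibrillar collagen chain, led the higher genes with 1479, 1421 and 1244 CPM against 2.61, 3.30 and 46.3 CPM (6.62, SE 0.62), and the citrate transporter gene *Slc13a5* was next (6.10, SE 0.55). *Comp* (6.10) and *Col9a3* (6.00), which encode cartilage matrix proteins, were high in the Pdgfra-GFP library only, with 3547 and 3105 CPM in its high tertile and at most 27.3 CPM in the others. *Pla2g5*, *Cgref1*, *Bcan*, *Hhip*, *Creb3l3* and *Col15a1* followed, at between 6.10 and 5.75.

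Transcripts of other cells were checked in the Limch1/Kcnk2-high cells. The 14 endothelial genes summed to 52.7, 45.7 and 60.6 CPM, with *Eng* the most abundant. The 17 haematopoietic genes summed to 16067, 93.4 and 2852 CPM, with *S100a9* the most abundant, and 7, 10 and 1 of them were at 0. Metaphyseal 1 had 1 cell in which *S100a8* and *S100a9*, calprotectin genes of neutrophils, made up at least 1% of UMIs, metaphyseal 2 had 0 of 41 and the Pdgfra-GFP library had 14 of 877. Scrublet, a doublet caller, marked 0, 0 and 5 of the Limch1/Kcnk2-high cells and none of these. Their part in the results was not tested. The 14 mural genes, of pericytes and smooth muscle, summed to 244.8, 307 and 530.4 CPM, with *Mylk* the most abundant at 85.0, 93.4 and 166 CPM and 6, 6 and 2 genes at 0, and their part in the contractile genes was not tested. The late osteoblast and osteocyte genes summed to 1221, 1669 and 740.0 CPM, the erythroid genes to 143, 106 and 1974 CPM and the osteoclast genes to 393, 269.9 and 328 CPM, with *Car3*, *Hbb-bs* (*Car2* in metaphyseal 1) and *Ctsk* the most abundant of each. The 14 fibroblast genes summed to 125.8, 110.03 and 368 CPM, with *S100a4* the most abundant in both metaphyseal libraries and *Abi3bp* in the Pdgfra-GFP library. The 16 chondrocyte genes summed to 284, 498 and 2194 CPM in Limch1/Kcnk2-high cells and 2541, 1171 and 73527 CPM in Wif1-only cells, and their part in the calls for all members was not tested beyond the values given for Limch1/Kcnk2-high cells alone. *Col11a2* was the most abundant chondrocyte gene in both populations of the metaphyseal libraries. It was at 177 and 338 CPM in Limch1/Kcnk2-high cells and 1082 and 1097 CPM in Wif1-only cells there, and at 2318 and 2368 CPM in osteoblasts. *Col2a1* was the most abundant in the Pdgfra-GFP library. A Wif1-only cell of metaphyseal 1 was rich in cartilage genes, as given above.

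The reporter transcript matched the groups. H2B-GFP was at 0 in members of both metaphyseal libraries and at 87.5 CPM in members of the Pdgfra-GFP library, with 159 CPM in Limch1/Kcnk2-high cells and 26.5 CPM in Wif1-only cells. *Pdgfra* itself was at 69.7, 83.0 and 34.7 CPM in Limch1/Kcnk2-high cells and 85.3, 118 and 12.1 CPM in Wif1-only cells. In the sorted library both transcripts were lower in Wif1-only cells, and near-empty barcodes held H2B-GFP at 65.5 CPM, above the Wif1-only level.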

How the data were processed

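Droplet counts of 3 libraries were used, 2 metaphyseal and 1 Pdgfra-GFP. The authors trimmed reads with fastp 0.20, aligned them with STARsolo in STAR 2.7.3a to mm10 with Gencode M23 and the H2B-GFP sequence, and deposited unfiltered raw UMI counts per gene and barcode. EmptyDrops, run by the authors, was not run here.

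Cells were kept with at least 1500 genes (metaphyseal) or 1000 genes (Pdgfra-GFP), no more than 15% of UMIs from mitochondrial and 30% from ribosomal protein genes. UMIs were summed per library and population of at least 10 cells. Members, *Lepr* stromal cells and osteoblasts of all 3 libraries and the septoclasts of the Pdgfra-GFP library entered a single fit of 10 sums with edgeR 4.0.16 in R 4.3.3 (TMM factors, filterByExpr, quasi-likelihood test, library block, Benjamini-Hochberg adjusted p under 0.05), and the tertiles one of 9 sums. Each left 4 residual degrees of freedom. The standard error is the log2 fold change over the root of F. Nothing in the sources used here says how many animals gave each library. With the library block, the p-values measure how differences between populations or tertiles varied among libraries, not among known animals. Septoclasts reached 10 cells in 1 library only, and the planned test was not made.

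Near-empty barcodes are those with at most 100 UMIs. Exact 95% intervals, Poisson for levels and binomial for shares, reflect only counting error. Scrublet (scanpy 1.11.5) marked doublets, which stayed in, and their removal was an alternative. Gene positions are from Gencode M21 on the same build. Alternatives were RLE factors, DESeq2 1.42.0, no filter on low counts, no block, leaving out each library, a gate of 6 UMIs, thinning to 2000 UMIs, stricter quality limits and the compared populations only. On simulated data with 200 changed genes, 85.0% (*Lepr* stromal cells) and 90.0% (osteoblasts) of 2-fold changes were recovered, with 8 and 12 false calls. The simulated sums had no library effect and a smaller biological spread than the fitted one (coefficient of variation 0.216 in both comparisons). These shares are therefore no measure of recovery in the real sums.

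Named genes were the 10 higher and 10 lower with the largest change past the threshold, in the same direction in every library and with at least 20 CPM, and the 15 with the largest rise over both populations (the planned rule also had septoclasts). Predicted, mitochondrial, ribosomal and haemoglobin genes were passed over. The members and the gene lists were chosen with earlier results of these data known.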

Additional observations from a re-analysis of the deposited data

Results flagged for a closer look

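*Col9a2* and *Matn3*, which encode cartilage matrix proteins, and *Ibsp*, which encodes bone sialoprotein, differed in direction between the groups when members were compared with *Lepr* stromal cells. The log2 ratio of *Col9a2* was 4.06 in the Pdgfra-GFP library and -1.99 and -2.43 in the metaphyseal libraries, and that of *Matn3* was 4.36 against -2.71 and -0.68. The ratio of *Ibsp* was -0.78 in the Pdgfra-GFP library and 2.32 and 1.71 in the metaphyseal libraries. With 1 sorted library these differences were not tested.

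The H2B-GFP transcript, which took no part in the comparisons, was at 87.5 CPM in members of the Pdgfra-GFP library and at 0 in those of the metaphyseal libraries.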

How the results depend on the processing

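The 4562 genes that differed from *Lepr* stromal cells ranged from 2820 to 4961 when 1 library was left out. The 1270 genes that differed from osteoblasts ranged from 658 to 896 in the same way, were 730 with DESeq2, 2280 with no filter on low counts, 196 with no library block, 4749 with cells gated after thinning to 2000 UMIs and 3693 for Limch1/Kcnk2-high cells alone (chosen after seeing the data), and the share of calls that were higher moved from 64.6% to 50.6% with thinning, 48.4% without the Pdgfra-GFP library, and 74.8% and 72.2% without metaphyseal 1 and 2. The 1927 genes between tertiles were 3106 with no filter, 965 with no library block and 515 after thinning, where 48.0% were higher in place of 55.9%. The cause of these changes was not tested. The shares of members were 3.78, 3.94 and 14.3% with a gate of 6 UMIs, 2.85, 3.34 and 13.0% after thinning, and 2.02, 2.05 and 7.80% for Limch1/Kcnk2-high cells, and with stricter quality limits 21.7% in the Pdgfra-GFP library. For named genes, 1029 values kept their direction and side of the threshold, 37 lost the call and 3 reversed, all 3 in Limch1/Kcnk2-high cells: *Hhip* against *Lepr* stromal cells (-1.28), and *Calml3* (-0.79) and *Lgals3* (-0.25) against osteoblasts. Of the losses 24 came without the library block: *Tnmd*, *Lgals3*, *Igfbp6* and *Thbs3* against both populations, *Fam89a*, *Car8*, *Calml3*, *Col8a1*, *Bglap3*, *Ranbp3l*, *Tubb3*, *Hrc*, *Ephx4*, *Col6a3*, *S100a4* and *Fmod* against osteoblasts, and *Comp*, *Pla2g5*, *Col9a3* and *Igf1* between tertiles. In Limch1/Kcnk2-high cells *Tnmd* lost both calls, *Lgals3* that against *Lepr* stromal cells, and *Hhip* and *Igfbp6* those against osteoblasts. With DESeq2 *Tnmd* lost both and *Prss35* its call. *Fmod* lost a call with only the compared populations in the fit (*Lepr* stromal cells) and without metaphyseal 2 (osteoblasts). Without the Pdgfra-GFP library *Thbs3* lost both calls (0.87 and 1.55) and *Comp* its call between tertiles (2.38). No paired analysis was possible because the labels give the 2 groups of libraries fewer than 2 replicate numbers in common; populations of the same library were paired only by the library block of each fit. With 41 and 48 Limch1/Kcnk2-high cells per metaphyseal library, a gene in a few percent of cells was at the limit of detection there.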
